A study of Homo sapiens with 12 samples.

Results

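The 45 genes described here encode the proteins that mark replication origins, load and start the replicative helicase, and carry out DNA synthesis at the fork. They were taken from a fixed list of origin licensing, polymerase and fork genes, matched by symbol to the Ensembl identifiers of the deposited table. All 45 had a row among the 14029 genes tested. The list does not use any measured value, but it was drawn up with earlier results of these data known. ES-2 is a human ovarian cancer cell line. The knockdown cells carried a short hairpin RNA (shRNA) against SRMS, a non-receptor tyrosine kinase, and their controls carried the pLKO vector, which the labels record as WT. Both groups had 15 µM cisplatin, a platinum drug that crosslinks DNA, for 8 hours, and each had 3 libraries of poly(A) RNA. The 6 libraries from cells given phosphate-buffered saline are not analysed here, so every value is from cisplatin-treated cells and no response to cisplatin was measured. The labels name neither the number of hairpins or clones nor separate cultures, so the p-values measure how far these samples vary, and that variation may be technical only.

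Before S phase, the origin recognition complex (ORC) binds DNA and, with CDC6 and CDT1, loads the MCM2-7 helicase in an inactive double ring. In S phase CDC45 and the GINS complex join MCM2-7 to form the active helicase, with MCM10 needed for its activation. Polymerase alpha with primase lays down primers, polymerase epsilon extends the leading strand and polymerase delta the lagging strand. PCNA, a sliding clamp put on DNA by the RFC complex, holds the polymerases, and RPA coats the exposed single strand. Many of these genes are textbook targets of E2F transcription factors, which act at the G1/S boundary. Cisplatin crosslinks block the fork.

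Values are the authors' deposited signal, which is whole reads over each library's effective size, scaled as CPM values are. Recovered reads totalled 28009232 to 38072051 in the SRMS shRNA libraries and 29072793 to 56855428 in the vector libraries, and every replication gene had at least 230 reads in every library. SRMS itself had a signal of 0.328, 1.07 and 0.863 in the 3 libraries labelled SRMS shRNA, against 0.0669, 0.306 and 0.819 in the vector libraries, and these ranges overlap. The hairpin's target was therefore not lower in the libraries that carry its label (two-sided exact permutation p = 0.2, where the smallest possible with 3 against 3 is 0.1), and the groups below are named as labelled. Its log2 fold change was 0.52 (limma adjusted p = 0.168), and with the replicate block it was higher (limma adjusted p = 0.00782), on 9 to 39 reads in the SRMS shRNA libraries and 2 to 47 in the vector libraries. Of 11 listed ovarian carcinoma markers 6 were measured, and 3 were higher and 2 lower by limma. The keratin KRT18 averaged a signal of 1015 in the SRMS shRNA libraries and 875 in the vector libraries, whereas the Müllerian factor PAX8 averaged 0.241 with the SRMS shRNA and 0.136 with the vector. The keratin KRT7 was lower, at 543 with the SRMS shRNA and 697 with the vector, as was WT1, at 1.42 with the SRMS shRNA and 2.84 with the vector, and KRT8 and VIM were higher. The summed signal of 5 of 8 leukocyte markers ran from 60.7 to 65.2 in the SRMS shRNA libraries and from 49.6 to 52.3 in the vector libraries, most of it CD68. That of 3 of 6 endothelial markers ran from 5.88 to 8.36 in the SRMS shRNA libraries and from 14.8 to 16.8 in the vector libraries, most of it CDH5. That of 6 of 8 fibroblast markers ran from 960 to 969 in the SRMS shRNA libraries and from 1362 to 1369 in the vector libraries, most of it COL1A1, while COL3A1 averaged 0 with the SRMS shRNA and 0.0364 with the vector. Of these 6, COL1A1 and PDGFRA were lower and FAP and THY1 higher by limma. Of the 5 leukocyte markers CD14, CD68 and LYZ were higher and 0 lower by limma. CD14 averaged 3.24 with the SRMS shRNA and 0.879 with the vector. Of the 3 endothelial markers 1 was lower and 0 higher. The part of these markers in the results below was not tested.

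Replication genes were more often lower than higher in the SRMS shRNA libraries, by small amounts. By limma, at a Benjamini-Hochberg adjusted p under 0.05 over the whole table, 23 of the 45 (51.1%) were lower and 4 (8.89%) were higher, and when library medians were set equal (median scaling) these counts became 14 lower and 15 higher. Over all 14029 genes 30.2% were lower and 26.6% higher, and with median scaling 17.9% were lower and 44.6% higher. In bulk RNA, fewer cells that express a gene and less RNA per cell cannot be told apart. The median log2 fold change of the 45 was -0.18, against 0.0031 over all genes. Median scaling moved every gene up by 0.16 and left the list 0.18 below the median of all genes, as before. By edgeR 23 were lower and 5 higher, against 29.7% and 27.7% of all genes, and by DESeq2 22 and 4, against 27% and 25.6%. With quantile scaling 21 were lower and 4 higher, against 26.3% and 28.3% of all genes, and the list lay 0.093 below the median of all genes. No replication gene changed by 1 or more on the log2 scale, and 5 (11.1%) fell by at least 0.5, against 10% of all genes. At a change of 0.5 or more 7.05% of all genes rose, and at 1 or more 1.33% fell and 0.748% rose. The summed signal of the 45 genes was 5880, 5979 and 5955 in the SRMS shRNA libraries, against 6218, 6309 and 6293 in the vector libraries, a difference of -5.34%. The shift of 0.16 by median scaling is larger than this difference, so its direction depends on the scaling. As a share of recovered reads, the 45 genes made up 0.571% to 0.575% in the SRMS shRNA libraries and 0.635% to 0.639% in the vector libraries. Abundant genes such as TYMS and MCM7 weigh most in the sum.

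No overlap between the groups was found for 25 genes that were lower and 6 that were higher in the SRMS shRNA libraries, or 55.6% and 13.3% of the list, against 32.9% and 29.7% of all genes. Of the 23 genes called lower, 14 were also lower with median scaling, with quantile scaling and after removal of the length and GC trends in a fit with the replicate number as a block. These 14 are ORC1, ORC2, ORC5, CDC6, MCM10, CDC45, GINS1, PRIM1, POLE, POLD3, RFC1, RFC3, RRM1 and UHRF1. Median scaling ended the lower call of ORC6, MCM3, MCM4, MCM6, POLA1, POLA2, POLE2, RFC5 and RPA1. It called ORC3, GMNN, MCM2, MCM5, POLD1, PCNA, RFC2, RPA2, FEN1, LIG1 and TYMS higher. Of the 4 called higher on the deposited scale, POLD2 and RPA3 were higher in all 4 of these fits. In the blocked fit the counts were 25 lower and 8 higher, against 34.3% and 31% of all genes, and the 8 included PCNA, RPA2, FEN1 and TYMS. The number of the 45 called higher was 2 without vector replicate 1, 9 without SRMS shRNA replicate 1, 10 without replicate 1 of both groups and 1 with replicates 2 and 3 of each group averaged. Of all 14029 genes the same fits called 3296, 3891, 4091 and 2781 higher. In those fits 22, 23, 23 and 20 of the 45 were called lower, against 3870, 4433, 4653 and 3287 of all 14029 genes.

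**Figure D1:**
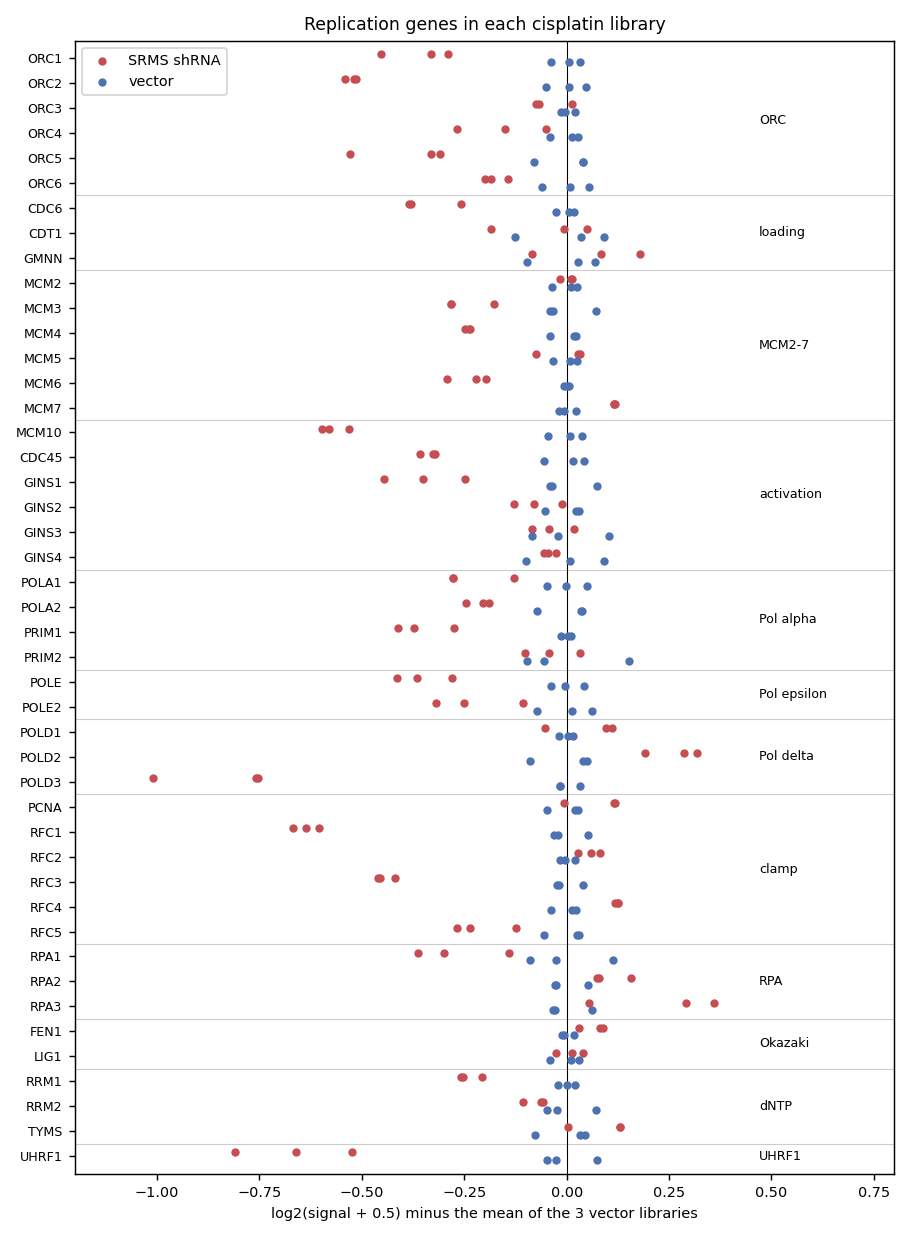
Signal of each of the 45 replication genes in each library, as log2(signal + 0.5) minus the mean of the 3 vector libraries, with SRMS shRNA libraries in red and vector libraries in blue, grouped by complex. The red points of POLD3, UHRF1, RFC1, MCM10 and ORC2 lie farthest to the left, and those of POLD2 and RPA3 farthest to the right.

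The promoters of these genes were searched for short E2F-type sequences, because many of the genes are textbook E2F targets. Whether these sequences bear on the fold changes was not tested. RefSeq promoter windows on GRCh38.p14, which run from 250 bases before to 50 bases after a gene's start, were matched for 39 of the 45 genes, with MCM4, MCM5, GINS4, POLD3, RPA2 and RPA3 unmatched. TTCCCGC or TTGGCGC, searched on both strands, occurs in 24 of the 39 windows (61.5%), against 14.2% of 11313 windows of tested genes. CCAAT occurs in 23 (59.0%), against 37.0%, and TTTGAA in 1 (2.56%), against 10.2%. Among the 24 genes with an E2F-type match 14 were lower and 2 higher by limma, and among the 15 without one 7 were lower and 1 higher. Over all genes with a window 36.2% of those with a match were lower and 22.2% higher, and 30.7% of those without were lower and 26.9% higher. A match describes letters in the window and shows no binding. The windows of the 6 called genes with a match and the smallest adjusted p follow, 5′ to 3′ on the gene's strand, with matches in capitals, in either orientation.
RFC1 promoter: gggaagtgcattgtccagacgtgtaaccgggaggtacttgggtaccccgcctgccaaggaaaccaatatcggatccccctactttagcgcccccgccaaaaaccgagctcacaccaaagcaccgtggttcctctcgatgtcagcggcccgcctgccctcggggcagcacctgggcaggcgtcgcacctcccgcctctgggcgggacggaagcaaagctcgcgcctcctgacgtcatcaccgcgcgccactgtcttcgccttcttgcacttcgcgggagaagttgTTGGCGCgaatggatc
UHRF1 promoter: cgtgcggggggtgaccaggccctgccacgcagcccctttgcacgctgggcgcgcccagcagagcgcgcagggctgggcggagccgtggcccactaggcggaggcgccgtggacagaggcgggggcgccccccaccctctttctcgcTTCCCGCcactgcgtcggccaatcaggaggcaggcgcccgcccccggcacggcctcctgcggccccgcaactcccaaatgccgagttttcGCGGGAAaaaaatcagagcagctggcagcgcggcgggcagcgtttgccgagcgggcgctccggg
RFC3 promoter: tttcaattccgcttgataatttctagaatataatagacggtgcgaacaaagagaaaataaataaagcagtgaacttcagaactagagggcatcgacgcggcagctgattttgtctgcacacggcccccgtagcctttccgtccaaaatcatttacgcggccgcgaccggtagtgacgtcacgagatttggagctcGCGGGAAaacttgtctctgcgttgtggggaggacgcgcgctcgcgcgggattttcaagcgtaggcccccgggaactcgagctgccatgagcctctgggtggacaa
POLE promoter: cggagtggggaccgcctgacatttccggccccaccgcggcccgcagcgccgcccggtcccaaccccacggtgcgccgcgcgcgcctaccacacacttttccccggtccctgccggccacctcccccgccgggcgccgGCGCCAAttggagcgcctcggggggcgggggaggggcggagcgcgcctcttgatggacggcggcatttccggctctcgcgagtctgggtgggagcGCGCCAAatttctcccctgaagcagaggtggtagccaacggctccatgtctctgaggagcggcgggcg
CDC6 promoter: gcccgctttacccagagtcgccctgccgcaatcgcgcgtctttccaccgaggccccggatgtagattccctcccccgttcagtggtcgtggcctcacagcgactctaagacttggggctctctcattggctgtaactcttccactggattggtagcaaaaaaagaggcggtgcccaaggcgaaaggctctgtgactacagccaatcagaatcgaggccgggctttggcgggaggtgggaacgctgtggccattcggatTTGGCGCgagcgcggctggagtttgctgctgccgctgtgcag
RRM1 promoter: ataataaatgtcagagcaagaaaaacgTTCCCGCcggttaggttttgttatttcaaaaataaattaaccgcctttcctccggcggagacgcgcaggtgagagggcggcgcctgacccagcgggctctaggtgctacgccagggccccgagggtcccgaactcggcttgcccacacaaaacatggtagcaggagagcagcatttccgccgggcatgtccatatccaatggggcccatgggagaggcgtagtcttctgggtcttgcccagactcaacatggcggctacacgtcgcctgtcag
They lie at chr4:39366313-39366612 (- strand) for RFC1, chr19:4909251-4909550 (+ strand) for UHRF1, chr13:33817899-33818198 (+ strand) for RFC3, chr12:132687293-132687592 (- strand) for POLE, chr17:40287629-40287928 (+ strand) for CDC6 and chr11:4094435-4094734 (+ strand) for RRM1. RFC1 and CDC6 carry the match downstream of the start, POLE and UHRF1 carry 2 matches each, and RFC3 and RRM1 carry 1 each upstream.

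Among the origin recognition genes, 4 of 6 were lower and 0 higher, a count that was 3 lower and 1 higher with median scaling. The shares of all genes were 30.2% lower and 26.6% higher, or 17.9% and 44.6% with median scaling. ORC2, a core subunit, had a signal of 17.1, 16.8 and 17.1 in the SRMS shRNA libraries, against 25.5, 24.8 and 23.8 in the vector libraries. All SRMS shRNA values lay well below all vector values, a log2 fold change of -0.52 (SE 0.0549, limma adjusted p = 2.63e-05). The gene (ENSG00000115942) spans chr2:200908973-200963680 of GRCh38, on the minus strand. ORC1, the subunit that cycles with the cell cycle, had 65.6, 63.7 and 58.6 with the SRMS shRNA, against 78.3, 82.2 and 80.7 with the vector (-0.36, limma adjusted p = 0.000131). The groups of ORC1 do not overlap either. ORC5, an ATP-binding subunit, averaged a signal of 18.4 ± 1.55 with the SRMS shRNA and 24.2 ± 1.18 with the vector (SD, n = 3 each), a log2 fold change of -0.39. ORC6, the smallest subunit, averaged 89.2 ± 1.81 with the SRMS shRNA and 101 ± 4.03 with the vector, at -0.18. ORC4 was lower in each library without overlap but missed the threshold, at -0.16 (limma adjusted p = 0.0567), and passed it with the replicate block. It was at 0.0044 with median scaling and at 0.10 in the blocked fit with length and GC trends removed, called in neither. ORC3 had -0.04, with a 95% interval from -0.14 to 0.05.

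Of the genes that load the helicase, CDC6 fell and the values of CDT1 and its inhibitor overlapped. CDC6, the ATPase that works with ORC, had a signal of 115, 105 and 105 in the SRMS shRNA libraries, against 139, 138 and 135 in the vector libraries. No SRMS shRNA value reached the vector range, and the log2 fold change was -0.34 (SE 0.0419, limma adjusted p = 7.44e-05). CDT1, which brings MCM2-7 to ORC, had 112, 132 and 126 with the SRMS shRNA, against 116, 135 and 130 with the vector. Replicate 1 was lowest in both groups, and the log2 fold change of -0.05 had an interval from -0.20 to 0.10. GMNN encodes geminin, which binds CDT1 and blocks reloading, and it averaged 82.9 ± 7.6 in the SRMS shRNA libraries and 79.4 ± 4.68 in the vector libraries, at 0.06 (interval -0.09 to 0.21). The ratio of the CDT1 to the GMNN signal within a library was 1.49, 1.56 and 1.41 with the SRMS shRNA, against 1.57, 1.67 and 1.57 with the vector. These ratios do not overlap, by a narrow margin. Since the genes differ in length, only their difference between libraries can be read, and no length or GC trend was removed from it. The CDC6 to GMNN ratio was 1.53, 1.25 and 1.17 with the SRMS shRNA, against 1.88, 1.71 and 1.62 with the vector, with no overlap. In the blocked fit with the length and GC trends removed, CDC6 was at -0.19, closer to GMNN than on the deposited scale. CDT1 and GMNN were both at -0.10 in that fit, and all 3 genes were called lower.

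The 6 helicase subunits did not move alike, although in the protein complex they stand in equal number. MCM3, MCM4 and MCM6 were lower, MCM7 was higher, and MCM2 and MCM5 did not pass the test, whereas with median scaling MCM2, MCM5 and MCM7 were higher and none was lower. MCM4 had a signal of 425, 425 and 422 in the SRMS shRNA libraries, against 487, 509 and 507 in the vector libraries, a log2 fold change of -0.24 (SE 0.0316, limma adjusted p = 0.000115). MCM7 had 612, 610 and 611 with the SRMS shRNA, against 573, 561 and 557 with the vector, at 0.12 (SE 0.0298, limma adjusted p = 0.00714). The groups do not overlap for either gene, and they differ in opposite directions. MCM3 averaged 254 ± 10.7 with the SRMS shRNA and 301 ± 13.2 with the vector, at -0.25, and MCM6 averaged 137 ± 4.6 with the SRMS shRNA and 161 ± 0.678 with the vector, at -0.24. MCM2 averaged 338 ± 3.97 in the SRMS shRNA libraries and 338 ± 7.56 in the vector libraries, and its interval ran from -0.07 to 0.07. MCM5 had an interval from -0.09 to 0.08. With quantile scaling MCM3, MCM4 and MCM6 were again lower and MCM7 was not called.

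Helicase activation genes held some of the larger drops. MCM10, which is needed to start unwinding, had a signal of 65.9, 63.7 and 62.9 in the SRMS shRNA libraries, against 92.6, 96 and 98 in the vector libraries. The groups stand far apart, and the log2 fold change was -0.57 (SE 0.0397, limma adjusted p = 2.02e-06). CDC45, the helicase cofactor, had 49.8, 51.1 and 50.9 with the SRMS shRNA, against 64.7, 61.6 and 65.9 with the vector, at -0.34 (limma adjusted p = 8.3e-05). Among the 4 GINS subunits GINS1 fell, with a signal of 13, 11.3 and 12.1 with the SRMS shRNA, against 16.4, 15.2 and 15.1 with the vector (-0.35, limma adjusted p = 0.00231). GINS2, GINS3 and GINS4 had log2 fold changes of -0.07, -0.04 and -0.04, with overlapping groups, and under median scaling all 3 turned to values above 0 that did not pass the test. In all, 3 of these 6 genes fell and 0 rose, also with median scaling. Over all genes 30.2% were lower and 26.6% higher, or 17.9% and 44.6% with median scaling.

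**Figure D2:**
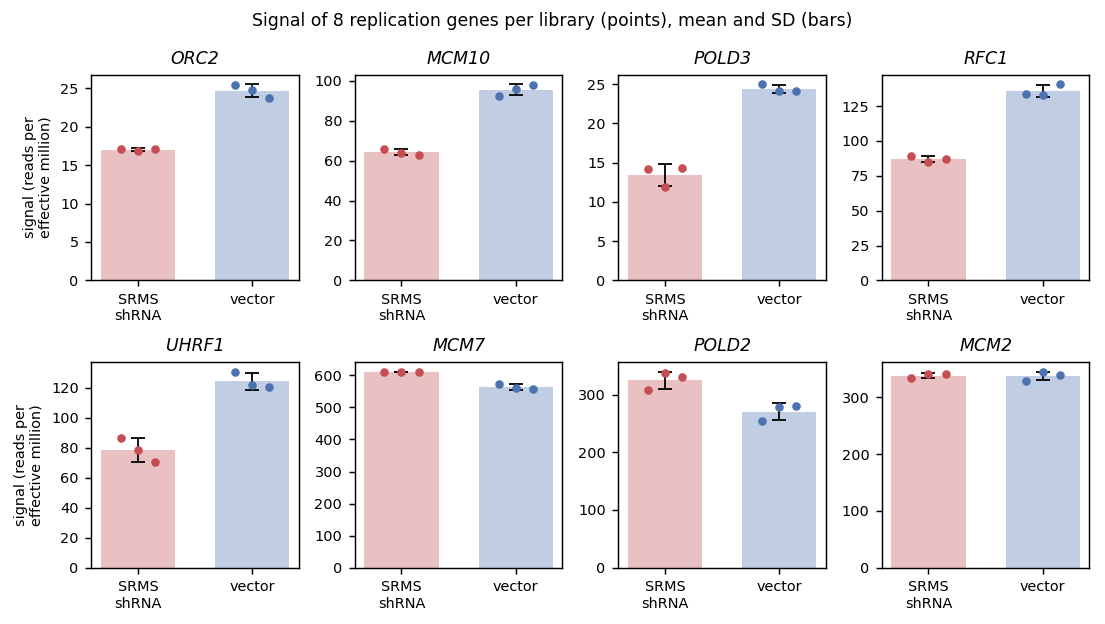
Signal of 8 replication genes in each library on a linear axis, with SRMS shRNA left of vector, points for libraries and bars for the mean with its SD (n = 3). ORC2, MCM10, POLD3, RFC1 and UHRF1 are lower in the SRMS shRNA libraries without overlap, MCM7 and POLD2 are higher without overlap, and MCM2 is at 338 in both.

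The polymerases differed by subunit. POLD3, an accessory subunit of polymerase delta also used in break-induced replication, had the largest drop of the 45 genes on the log2 scale. Its signal was 14.2, 11.9 and 14.3 in the SRMS shRNA libraries, against 25, 24.1 and 24.2 in the vector libraries. Every SRMS shRNA value was far below the vector range, and the means differed by -44.9%, with a log2 fold change of -0.84 (SE 0.0764, limma adjusted p = 1.03e-05). The gene (ENSG00000077514) spans chr11:74493851-74669117, on the plus strand. POLD2, the regulatory subunit of the same enzyme, was higher, with 309, 337 and 330 with the SRMS shRNA, against 254, 278 and 280 with the vector, at 0.27 (limma adjusted p = 0.000785). POLD1, the catalytic subunit, averaged 115 ± 7.07 with the SRMS shRNA and 111 ± 1.33 with the vector, at 0.05 (interval -0.05 to 0.15). The POLD3 to POLD1 ratio of signals within a library was 0.134, 0.1 and 0.12 with the SRMS shRNA, against 0.229, 0.218 and 0.216 with the vector, without overlap.

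POLE and POLE2, the polymerase epsilon genes among the 45, fell, and POLE2 no longer passed with median scaling. The small subunits POLE3 and POLE4, which are not among the 45, had log2 fold changes of 0.04 (limma adjusted p = 0.432) and 0.55 (limma adjusted p = 3.83e-06). POLE, its catalytic subunit, had a signal of 120, 109 and 113 in the SRMS shRNA libraries, against 150, 145 and 142 in the vector libraries (-0.35, limma adjusted p = 6.43e-05). POLE2 averaged 18.6 ± 1.46 with the SRMS shRNA and 21.8 ± 1.05 with the vector, at -0.23 (limma adjusted p = 0.0184), and it lost its call when replicate 2 or 3 of the vector, or replicate 3 of the SRMS shRNA, was left out. Of the 4 genes of polymerase alpha and primase 3 were lower and 0 higher, and with median scaling 1 was lower. The shares of all genes were 30.2% lower and 26.6% higher, or 17.9% and 44.6% with median scaling. PRIM1, which makes the RNA primer, had 16.3, 17.5 and 15.9 with the SRMS shRNA, against 21.4, 21 and 21.3 with the vector, without overlap (-0.35, limma adjusted p = 0.000571). POLA1, the catalytic subunit, had -0.23 and POLA2 had -0.21, and neither passed with median scaling, with quantile scaling or with the length and GC trend removed. POLA2 also lost its call in 4 of the 6 fits that leave out 1 library. PRIM2, which regulates primase, had -0.04, with an interval from -0.21 to 0.13.

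The clamp loader differed by subunit as well. RFC1, the large subunit that opens the clamp, had a signal of 89.1, 85.3 and 87.1 in the SRMS shRNA libraries, against 134, 133 and 141 in the vector libraries. It fell by 0.64 on the log2 scale (SE 0.0381, limma adjusted p = 9.05e-07), a difference of -35.8% between the means, and the groups stand far apart. The gene (ENSG00000035928) spans chr4:39287456-39366375, on the minus strand. RFC3 had 33.6, 32.8 and 32.7 with the SRMS shRNA, against 46.5, 44.5 and 44.6 with the vector, at -0.45 (limma adjusted p = 1.81e-05). RFC5 averaged 68.4 ± 3.66 with the SRMS shRNA and 79.1 ± 2.58 with the vector, at -0.21, and lost its call with median scaling and with replicates 2 and 3 averaged. RFC4 was higher, with 78.6, 78.6 and 78.2 with the SRMS shRNA, against 70.2, 73.2 and 72.7 with the vector, at 0.12 (limma adjusted p = 0.0156), but was at -0.012 with the length and GC trend removed. RFC2 had 0.06 and PCNA, the clamp, had 0.08, neither past the test. PCNA had 366, 399 and 399 with the SRMS shRNA, against 356, 375 and 373 with the vector, so replicate 1 was lowest in both groups. PCNA was higher with the replicate block but lower, at -0.073, once the length and GC trend was removed with it, so its direction depends on the processing.

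RPA, the single-strand binding trimer, split by subunit. RPA1, the large subunit, had a signal of 128, 110 and 115 in the SRMS shRNA libraries, against 153, 133 and 139 in the vector libraries, at -0.27 (limma adjusted p = 0.00486), and was not called with median scaling. RPA3, the small subunit, had 46.6, 57.6 and 54.9 with the SRMS shRNA, against 43.8, 46.8 and 44 with the vector, at 0.23 (limma adjusted p = 0.0175). Its lowest SRMS shRNA value lay just below the highest vector value, and its call was lost when replicate 1 or 3 of the vector, or replicate 2 or 3 of the SRMS shRNA, was left out. RPA2 had 0.10 (limma adjusted p = 0.0529). The flap nuclease FEN1, with 266 ± 5.72 with the SRMS shRNA and 254 ± 2.7 with the vector, and the ligase LIG1, with 94.5 ± 2.14 with the SRMS shRNA and 93.9 ± 2.38 with the vector, which finish Okazaki fragments, had log2 fold changes of 0.07 and 0.01 and did not pass, though both were higher with median scaling and FEN1 also with the replicate block.

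Of the genes for deoxynucleotides, RRM1 fell. RRM1, the large subunit of ribonucleotide reductase, had a signal of 290, 281 and 280 in the SRMS shRNA libraries, against 340, 335 and 330 in the vector libraries (-0.24, limma adjusted p = 0.000124). RRM2, its small subunit, had 143, 138 and 142 with the SRMS shRNA, against 156, 144 and 146 with the vector, at -0.08 (limma adjusted p = 0.128), without overlap by a narrow margin, and it was called lower with the replicate block (limma adjusted p = 0.0148) and with quantile scaling (limma adjusted p = 0.0496). The RRM2 to RRM1 ratio of signals was 0.498 ± 0.00948 with the SRMS shRNA and 0.444 ± 0.0154 with the vector (SD, n = 3 each). TYMS, thymidylate synthase, averaged 631 ± 31.7 with the SRMS shRNA and 594 ± 27.2 with the vector, at 0.09 (limma adjusted p = 0.13). UHRF1, which reads hemimethylated DNA behind the fork and brings the maintenance methyltransferase, had 86.2, 78.5 and 70.7 with the SRMS shRNA, against 131, 122 and 120 with the vector. Its groups are well apart, and the log2 fold change was -0.66 (SE 0.0654, limma adjusted p = 1.72e-05).

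**Figure D3:**
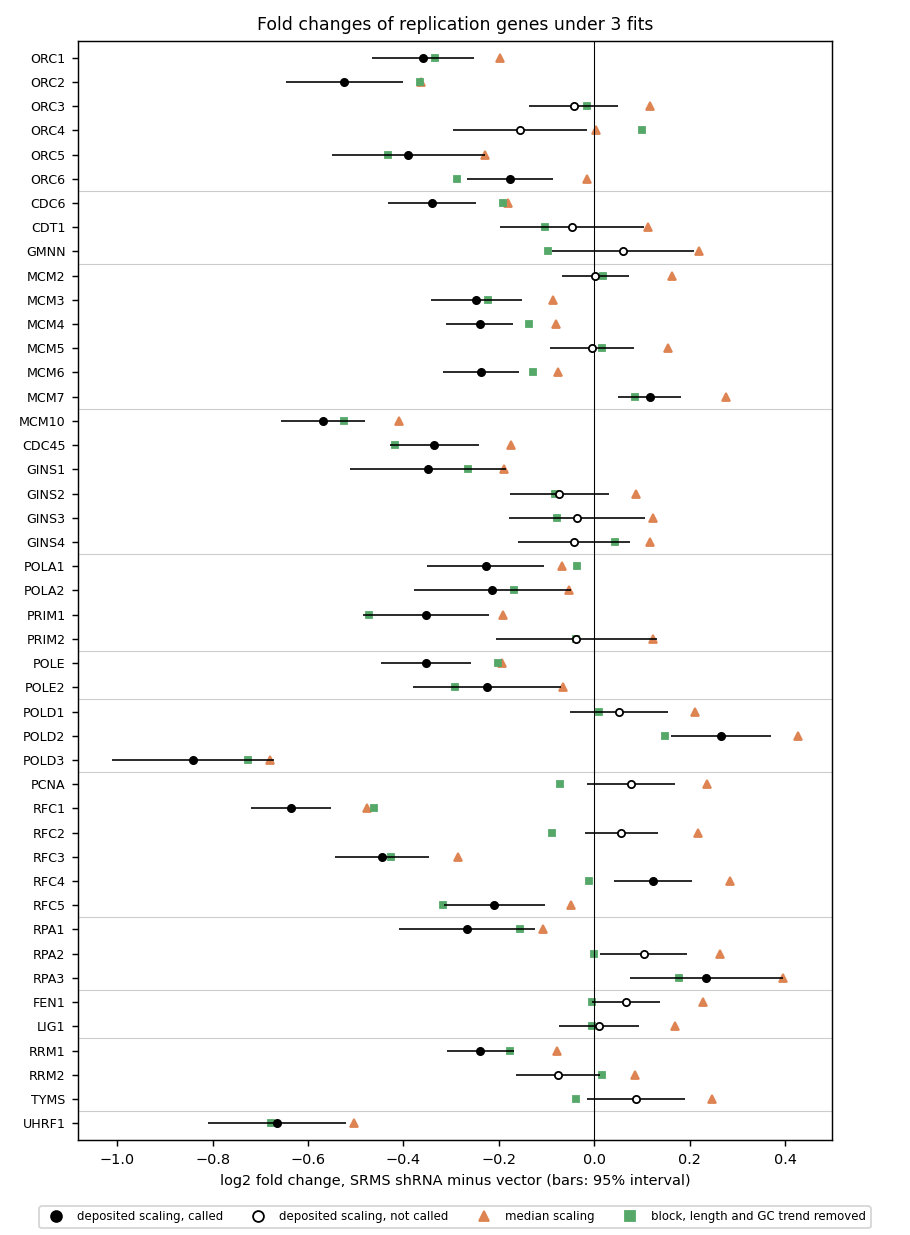
Log2 fold change of each replication gene, SRMS shRNA minus vector, with the 95% interval of the limma fit (filled where called), and the values with median scaling (triangles) and from the blocked fit without length and GC trends (squares). Median scaling moves each gene by 0.16 to the right, and POLD3, RFC1, MCM10 and UHRF1 stay at -0.41 or lower in all 3 fits.

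Levels were compared per length, as signal per kb of the chosen transcript. TYMS had the highest level, 380 per kb in the SRMS shRNA libraries and 357 in the vector libraries, followed by PCNA, at 286 with the SRMS shRNA and 271 with the vector, and MCM7, at 207 with the SRMS shRNA and 191 with the vector. POLA2 had the lowest, 2.2 with the SRMS shRNA and 2.58 with the vector. ORC4 had 3.62 with the SRMS shRNA and 4.04 with the vector, and GINS1 had 3.74 with the SRMS shRNA and 4.8 with the vector. Within ORC the levels per kb in the vector libraries ran from 4.04 for ORC4 to 61.9 for ORC6, and within MCM2-7 from 43.1 for MCM6 to 191 for MCM7. Across the 45 genes the log2 fold change and the mean signal had a Spearman rho of 0.33, as a description of genes that share libraries.

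Transcript length moved with the fold change, in the list as in the whole table. Among all genes, those with long transcripts (4120 nt or more) were lower in 50.4% and higher in 10.9%, and those with short ones (2279 nt or less) were lower in 10.4% and higher in 46.2%. Of the 8 replication genes with long transcripts 7 were lower and 0 higher, and of the 15 with short ones 6 were lower and 3 higher. Between these lengths 10 of 22 were lower and 1 higher, against 29.8% and 22.8% of all genes. The Spearman rho of log2 fold change with length was -0.44 over the 45 genes and -0.46 over all 14029. The median replication transcript had 3157 nt, against 3055 nt over all genes. After these trends, and that with GC content, were removed in the blocked fit, 25 of the 45 were lower and 3 higher, against 30.9% and 28.9% of all genes, with a median log2 fold change of -0.10. Under that fit 21 of the 23 genes called lower were lower again, and CDT1, GMNN, PCNA and RFC2 were lower as well.

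**Figure D4:**
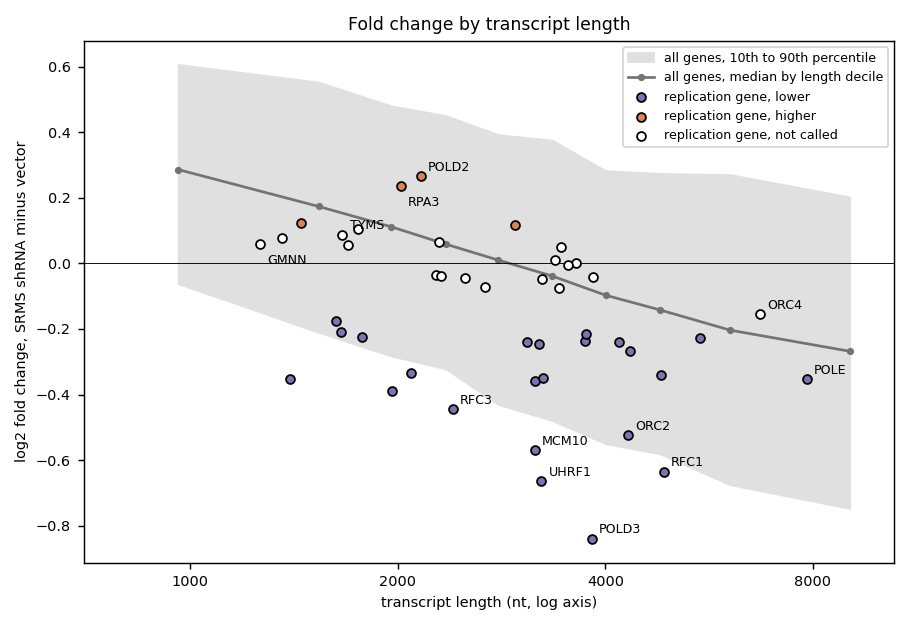
Log2 fold change of the replication genes against transcript length on a log axis, over the median (line) and the 10th to 90th percentile (grey) of all genes by length decile. POLD3, UHRF1, MCM10, RFC1, RFC3, ORC5, CDC45 and PRIM1 lie below the grey band, 0 genes lie above it, and ORC4, at 6710 nt, lies near the line.

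Other genes of the pathway were counted from lists that hold none of the 45. Beside these counts, 30.2% of all genes were lower and 26.6% higher, or 17.9% and 44.6% with median scaling. Of 12 measured origin firing genes 8 were lower and 1 higher, and with median scaling 7 and 2. TICRR, which brings CDC45 to the helicase, had a signal of 23.6, 22 and 21.8 in the SRMS shRNA libraries, against 42.1, 40.1 and 41.1 in the vector libraries (-0.86, limma adjusted p = 9.05e-07). TOPBP1, its partner, had -0.46 and MCMBP, which binds MCM proteins, had -0.35. Of 11 fork protection genes 8 were lower and 1 higher. With median scaling 2 were lower and 1 higher, and that share lower was near the share of all genes. CLSPN, the CHEK1 mediator, averaged 116 ± 8.17 with the SRMS shRNA and 161 ± 12 with the vector, and ETAA1 and HUS1 had -0.37 and -0.29, with HUS1 not called under median or quantile scaling. Of 10 genes for chromatin assembly and methylation 6 were lower and 0 higher, and with median scaling 3 and 3. They include both measured large subunits of the CAF-1 histone chaperone, CHAF1A at -0.50 and CHAF1B at -0.37, and the remodeller HELLS at -0.41.

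Of 15 genes for polymerase accessory subunits, other clamp loaders and flap processing 5 were lower and 3 higher, near the 30.2% and 26.6% of all genes, and with median scaling 3 and 6, near 17.9% and 44.6%. The nuclease EXO1 had 60.7 ± 1.53 with the SRMS shRNA and 94.8 ± 2.96 with the vector, DNA2 had -0.58, and POLE4, a small subunit of polymerase epsilon, rose to 74 ± 2.95 in the SRMS shRNA libraries, against 50.2 ± 0.833 in the vector libraries. Of 11 genes of nucleotide supply 4 were lower and 4 higher, and with median scaling 2 and 5, with CTPS1 at -0.23, DTYMK at 0.25 and NME1 at 0.45. CTPS1 was at -0.07 and not called with median scaling. With the length and GC trend removed, DTYMK was at -0.0025 and NME1 at 0.19. Of 8 genes that control the turnover of licensing factors 7 were lower and 1 higher, and with median scaling 3 and 1. DTL, the receptor that sends CDT1 for destruction in S phase, had 52.6, 49.1 and 51.7 with the SRMS shRNA, against 88.7, 84.2 and 85.8 with the vector, at -0.75 (limma adjusted p = 6.79e-07). SKP2 and FZR1 had -0.39 and -0.72.

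E2F factors activate or repress many replication genes, and RB proteins bind and restrain them. Of 13 E2F and RB family genes 11 were lower and 0 higher, and with median scaling 8 and 1. Over all genes 30.2% were lower and 26.6% higher, or 17.9% and 44.6% with median scaling. E2F3, an activator, had a signal of 11.2, 9.73 and 10.9 in the SRMS shRNA libraries, against 22.2, 20.9 and 21.2 in the vector libraries (-0.98, limma adjusted p = 2.37e-06). The repressors E2F7 and E2F8, which are themselves E2F targets, had -0.71 and -0.59. Of 12 G1/S cyclins, kinases and inhibitors 4 were lower and 5 higher, and with median scaling 3 and 6. CDC25A, the phosphatase that activates CDK2, had 37.3, 35.4 and 35.9 with the SRMS shRNA, against 80.5, 83.2 and 78.5 with the vector, at -1.15 (limma adjusted p = 6.19e-08). The cyclin CCNE2 had -0.50, while the cyclin CCND1 rose, with 758 ± 13.4 with the SRMS shRNA and 548 ± 2.14 with the vector, at 0.47. The lists were written with earlier results of these data known and are no independent evidence of direction.

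**Figure D5:**
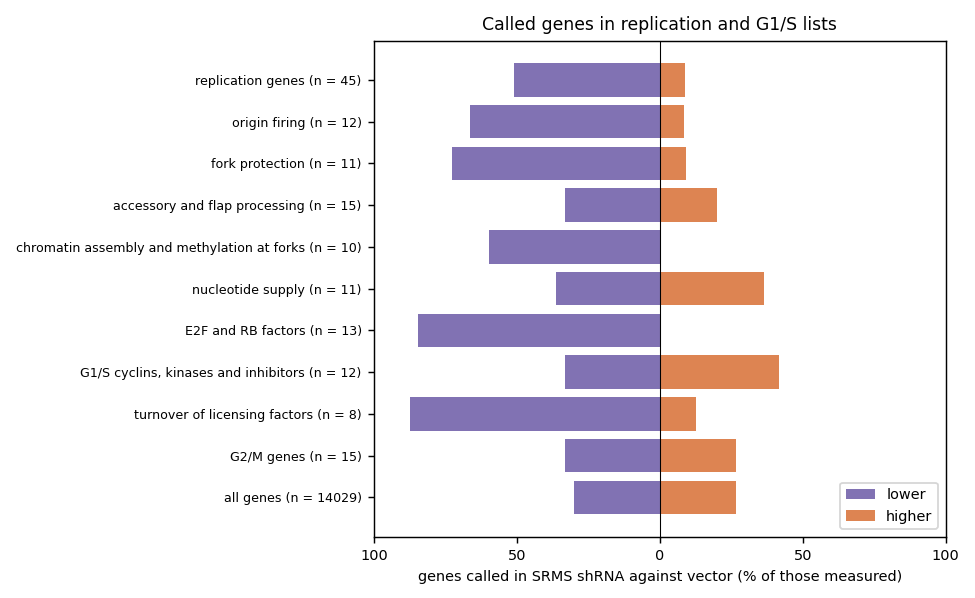
Share of measured genes called lower (left) and higher (right) in the SRMS shRNA libraries by limma, for the replication genes, 9 pathway lists and all genes. The E2F and RB list has 11 of 13 lower, the turnover list 7 of 8, and the bottom bar gives 30.2% lower and 26.6% higher for all genes.

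Some members share exon bases with other genes, and the strand setting of the authors' counting is not given in the sources used here. By GENCODE release 29, another gene covers 10% or more of the exon bases of 7 members. TYMS shares 39.1% with ENOSF1 on the opposite strand, MCM2, GINS3 and GINS4 each overlap an antisense RNA, and POLA2, RRM2 and PRIM1 overlap an annotated coding gene on the same strand. Pseudogenes named after 8 members, among them PCNA, RPA2, RRM2 and TYMS, are annotated as well, and the sources used here do not say how reads matching both were counted, so the values of these genes are less certain.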

How the data were processed

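Poly(A) RNA of ES-2 cells was sequenced in 12 samples in 4 groups of 3. The deposited table covers 6 of them, all given cisplatin. Per the labels' protocols, libraries were stranded TruSeq mRNA, read as paired ends on a NovaSeq 6000. Per the submitters' processing notes, reads were processed on GRCh38 with edgeR, StringTie, HISAT2, cutadapt and FastQC. Their versions, settings and any filter are not given in these sources. The table is named log CPM, but the authors' deposited values are a linear signal, and columns sum to between 972634 and 1046750 over the genes used. Dividing by the worth of 1 read gave whole reads, within 0.1, for at least 99.99% of values in each library.

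The table has 14042 rows. The 13 rows for Y copies of pseudoautosomal genes were left out, and 14007 of the other 14029 matched a symbol. Positions, lengths and GC content come from GENCODE release 29, with 1 coding transcript per gene (principal by APPRIS, then longest). Fits used limma 3.58.1 in R 4.3.3 with a mean-variance trend on log2(signal + 0.5), where folds of low genes are understated, and only these 6 libraries, with p-values adjusted by Benjamini-Hochberg over the whole table and called under 0.05. Intervals and SEs are those of limma. The count tests, edgeR 4.0.16 (quasi-likelihood) and DESeq2 1.42.0, ran on the recovered reads. They called 8058 and 7375 genes, against 7969 by limma. Tests were checked on simulated counts with 1 dispersion and known folds for a small share of genes. The simulation had no length trend, pairing or replicate 1 difference, so it does not vouch for the calls here.

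The members and lists were chosen with earlier results of these data known. Named are all members, SRMS and up to 3 genes with the smallest adjusted p in each pathway list, and the G2/M list is given with the closing values; the markers, POLE3 and AURKB were named after their values were seen. Alternatives were median and quantile scaling, pseudocounts of 1 and 0.1, a minimum mean log2 signal of 1, no trend, the count tests, the replicate block, the block with a loess trend with length and GC content removed, each library left out, replicate 1 of both groups left out, and replicates 2 and 3 averaged. Between same-numbered libraries, deviations from the group means correlated with r of 0.486, 0.238 and 0.225 over 11353 genes, so same-numbered libraries were treated as pairs in the blocked fit, and the unblocked fit gives the calls unless stated, although replicates 2 and 3 of opposite groups also had r of 0.198 and 0.202. Replicates 2 and 3 were closest within each group, with a chi-square per gene of 1.65 and 1.79, against 3.55 to 5.07 for pairs with replicate 1, which is above sampling noise, so all were kept.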

Additional observations from a re-analysis of the deposited data

How the results depend on the processing

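With pseudocounts of 1 and 0.1 and with a minimum mean, all 45 replication genes had the same direction and call, and none of the 27 called on the deposited scale was called in the other direction under any setting. GMNN, PCNA and RFC2, not called there, were higher with median scaling, PCNA also with the block, and all 3 were lower in the blocked fit without length and GC trends. In the pathway lists AURKB was called higher on the deposited scale (0.14) and lower in that fit (-0.090). For the values below the cause was not tested. With median scaling, which raises every gene by 0.16, 14 were lower and 15 higher and the median of the 45 was -0.016. The medians by complex were then -0.11 for ORC, 0.11 for loading, 0.039 for MCM2-7, -0.044 for activation, -0.061 for polymerase alpha, -0.13 for epsilon, 0.21 for delta, 0.083 for the clamp, 0.26 for RPA, 0.20 for Okazaki processing and 0.085 for deoxynucleotides (dNTP). The direction turned for ORC3 (0.12), ORC4 (0.0044), CDT1 (0.11), MCM5 (0.16), GINS2 (0.087), GINS3 (0.12), GINS4 (0.12), PRIM2 (0.12) and RRM2 (0.085). With quantile scaling the median was -0.081, with ORC at -0.21, MCM2-7 at -0.16, activation at -0.094, polymerase alpha at -0.10, epsilon at -0.23, Okazaki processing at 0.0054 and dNTP at -0.11. It turned ORC3 (0.026), MCM2 (-0.054), GINS3 (0.11), GINS4 (0.043), PRIM2 (0.11), PCNA (-0.023) and TYMS (-0.018). MCM5 was at 0.0046 by edgeR and 0.009 by DESeq2, where MCM2-7 had -0.11 and Okazaki processing 0.051. The replicate block, which pairs same-numbered libraries, gave 8 higher. The block with length and GC trend removed gave a median of -0.10, with ORC at -0.31, MCM2-7 at -0.056, polymerase alpha at -0.10, epsilon at -0.25, the clamp at -0.20, RPA at -0.0014, Okazaki processing at -0.005 and dNTP at -0.039. It turned ORC4 (0.10), GMNN (-0.10), MCM5 (0.017), GINS4 (0.044), PCNA (-0.073), RFC2 (-0.089), RFC4 (-0.012), RPA2 (-0.0014), FEN1 (-0.0048), LIG1 (-0.0052), RRM2 (0.015), TYMS (-0.039) and DTYMK (-0.0025). Without replicate 1 of both groups 10 were higher, with the clamp at -0.11, dNTP at -0.049, MCM2 at -0.006, MCM5 at 0.013 and GINS3 at 0.0396. With replicates 2 and 3 averaged 1 was higher. Over the 6 fits that each leave out 1 library, 2 to 9 were higher and the dNTP median ran from -0.10 to -0.0402. The ranges that crossed 0 were MCM2 (-0.016 to 0.015), GINS3 (-0.079 to 0.015), GINS4 (-0.092 to 0.0035), LIG1 (-0.011 to 0.026), MCM5 (-0.024 to 0.0303), PRIM2 (-0.086 to 0.039) and CDT1 (-0.11 to 0.021). With 3 libraries a group and SEs of 0.0298 to 0.0764 for these genes, small differences may have been missed.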

Other observations

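Of 15 measured G2/M genes, which act after replication, 5 were lower and 4 higher in the SRMS shRNA libraries by limma, near the 30.2% and 26.6% of all genes. With median scaling 4 were lower and 10 higher, against 17.9% and 44.6% of all genes. KIF11, a spindle motor, had a signal of 64.8, 64.1 and 66 in the SRMS shRNA libraries, against 108, 102 and 105 in the vector libraries, which is -0.69 on the log2 scale (limma adjusted p = 5.61e-07). TOP2A, which untangles sister chromatids, averaged 288 ± 11.1 with the SRMS shRNA and 368 ± 2.28 with the vector (SD, n = 3 each), at -0.35. UBE2C, an enzyme of the anaphase-promoting complex pathway, was higher, with 223 ± 12.8 with the SRMS shRNA and 158 ± 8.94 with the vector, at 0.50. In the blocked fit with length and GC trends removed, UBE2C was at 0.22, TOP2A at -0.13 and KIF11 at -0.49, each with the same call.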
